A study of Drosophila melanogaster with 2 samples.

Results

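Annotated transposable elements of the fly genome were examined for peaks of the protein encoded by CG1024. All 5896 records with the biotype transposable_element in the gene annotation were taken, of 24254 records of every kind, and 5889 of them lay on the 7 chromosomes that were scored. The remaining 7 lay on unplaced scaffolds. Peaks came from chromatin immunoprecipitation followed by sequencing of Drosophila melanogaster whole embryos aged 0 to 24 hours, from a transgenic strain (CG1024-GFP) whose flies make CG1024 fused to eGFP, pulled down through the GFP tag. The design was a single group, sampled as 2 biological replicates, without another genotype, treatment or age to set it against. Both replicates carried the transgene, and whether the native protein was also present is not stated in the labels. Binding was read as the summit, the single base of highest signal, of each of 3401 peaks in the conservative list made from both replicates by irreproducible discovery rate (IDR), a measure of how well a peak's rank holds between paired lists. Of these, 3397 were on the 7 chromosomes. Peak signal is the value that the authors' peak caller gave each peak, on a scale that is not stated. Since the tissue was whole embryos, few cells with much bound protein and many cells with little cannot be told apart.

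Transposable elements are stretches of DNA that move or once moved within a genome. LTR retrotransposons and LINE-like elements copy themselves through RNA, terminal inverted repeat (TIR) elements are cut out and reinserted as DNA, and helitron-like elements are thought to spread by rolling-circle copying. In Drosophila they crowd into the heterochromatin beside the centromeres and on the small chromosome 4, where the piRNA pathway and heterochromatin proteins keep many of them silent. Copies of a young family are nearly identical, so short reads from them often match many places in the genome, whereas old, worn copies can be told apart by their own substitutions.

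Sequences at 8 summits inside elements are shown because they carry the main features described further on. Each runs 50 bp to either side of the summit base, read from the RefSeq copy of the Release 6 assembly (dm6) and written 5′ to 3′ on the strand the annotation gives the element. The first 4 come from INE-1, a family of short helitron-like remnants, and capitals mark TATCGATA, the DNA replication-related element.
INE-1{}4837 (chr4:180799-180899, plus strand): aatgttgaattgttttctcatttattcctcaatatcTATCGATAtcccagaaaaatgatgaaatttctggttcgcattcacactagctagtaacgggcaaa
INE-1{}5485 (chr4:1148157-1148257, minus strand): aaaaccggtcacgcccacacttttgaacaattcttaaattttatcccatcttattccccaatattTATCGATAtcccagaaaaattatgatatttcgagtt
INE-1{}5315 (chr4:130709-130809, minus strand): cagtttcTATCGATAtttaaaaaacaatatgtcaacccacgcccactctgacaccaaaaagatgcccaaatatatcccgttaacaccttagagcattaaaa
INE-1{}6121 (chr2L:22130570-22130670, plus strand): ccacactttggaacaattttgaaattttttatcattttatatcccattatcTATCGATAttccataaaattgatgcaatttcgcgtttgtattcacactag
The next pair are copies of the LINE-like F-element, and capitals mark the run of 53 bases that their windows share.
F{}5843 (chr3L:23583701-23583801, minus strand): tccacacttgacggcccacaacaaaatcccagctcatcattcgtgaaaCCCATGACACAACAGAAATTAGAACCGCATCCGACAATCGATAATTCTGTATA
F{}4636 (chr3L:23686293-23686393, plus strand): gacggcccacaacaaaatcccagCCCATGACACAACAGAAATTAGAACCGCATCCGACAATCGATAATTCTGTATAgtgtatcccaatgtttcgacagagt
Another F-element held the window richest in CACTG or CAGTG, marked in capitals.
F{}1572 (chr4:1260521-1260621, plus strand): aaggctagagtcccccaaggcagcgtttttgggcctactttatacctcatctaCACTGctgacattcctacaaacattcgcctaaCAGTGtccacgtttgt
The last is the summit of highest signal inside any element, in the LINE-like G5, and holds none of these words.
G5{}5178 (chr3L:23258659-23258759, minus strand): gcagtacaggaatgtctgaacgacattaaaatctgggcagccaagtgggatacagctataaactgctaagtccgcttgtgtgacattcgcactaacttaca

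Few summits lay inside elements. They numbered 40 of 3397, or 1.18% (Wilson 95% interval 0.866% to 1.60%), while the elements covered 5.93% of the sequenced bases. This gave 4.92 summits per Mb inside elements (exact Poisson 95% interval 3.52 to 6.70), against 25.99 (25.1 to 26.9) in sequence more than 500 bp from any element. The difference was 5.28-fold, and the intervals did not overlap. In the thresholded list of replicate 1 alone the values were 3.20 inside and 19.9 elsewhere, and in that of replicate 2 alone 3.94 and 17.2, so the gap was larger than the spread between replicates in both. These intervals, like all those given here, cover counting error only, and the depth of sequencing is unknown because the files give peaks and not reads. With 1 group of samples the design allows no test between conditions, and none was made.

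The low density ended at the element's edge. Summits 1 to 100 bp outside an element numbered 18, at 19.97 per Mb (11.8 to 31.6). Beyond 100 bp and up to 500 bp there were 88, at 30.1 per Mb (24.1 to 37.0), and from there to 1000 bp the density was again 30.1 per Mb. Beyond that it ran between 23.4 and 27.5 per Mb at every distance measured. Sequence within 500 bp of an element as a whole held 106 summits, 3.12% of all, at 27.7 per Mb (22.7 to 33.5), which overlapped the interval elsewhere.

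**Figure D1:**
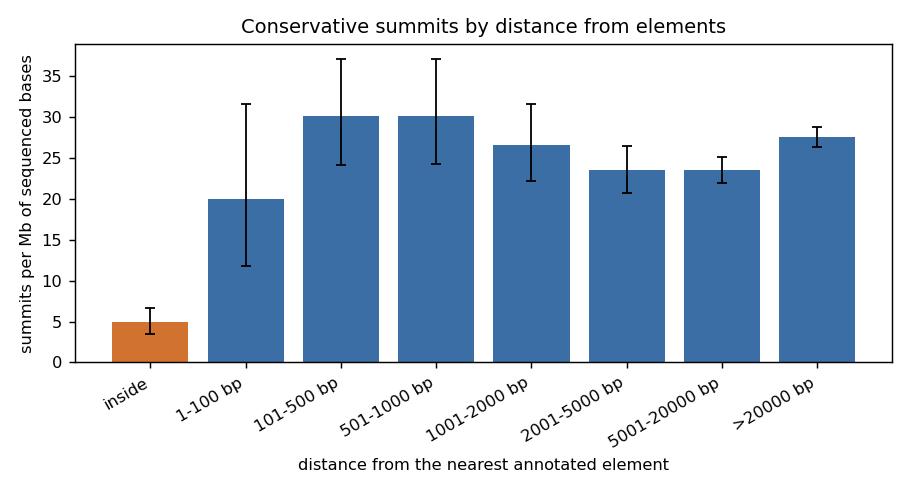
Conservative summits per Mb of sequenced bases (vertical axis) by distance from the nearest annotated element (horizontal axis), with exact Poisson 95% intervals. The bar for the inside of elements, at 4.92 per Mb, is the lowest, and the first bar outside stands at 19.97.

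Most sequence inside elements was repeated elsewhere in the genome. A base was counted as unique where the 50-base word centred on it occurs once in the reference on either strand. By this measure 25.3% of bases inside elements were unique, against 90.8% outside. The unique part, 2.06 Mb of 8.13 Mb, held 38 of the 40 summits. On unique bases the density was 18.5 per Mb inside elements (13.1 to 25.4) and 28.6 per Mb outside (27.6 to 29.5), a ratio of 1.55 in place of 5.29 over all bases. On repeated bases it was 0.330 per Mb inside and 1.26 per Mb outside, so repeated sequence was nearly empty of summits on both sides. How the aligner treated reads that match several places is not given in the sources used here.

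Start sites of genes were the other feature that moved with the gap. Only 5 of the 40 summits inside elements (12.5%, Wilson 5.46% to 26.1%) were within 500 bp of the transcription start site of a record that is not an element, against 49.3% of the 3357 summits outside elements. Over bases more than 500 bp from any start site, the density was 4.39 per Mb inside elements and 15.4 per Mb outside. Over bases that were both unique and more than 500 bp from a start site, it was 16.8 per Mb inside (33 summits, interval 11.6 to 23.6) and 17.0 per Mb outside (1691 summits, 16.2 to 17.8). There the interval inside held the value outside, and it was wide enough to hold densities from 11.6 to 23.6 per Mb. With 36-base words the same pair was 18.6 and 17.1 per Mb, and with 100-base words 14.1 and 16.8. These restrictions on the bases counted were chosen after the unrestricted values had been seen.

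**Figure D2:**
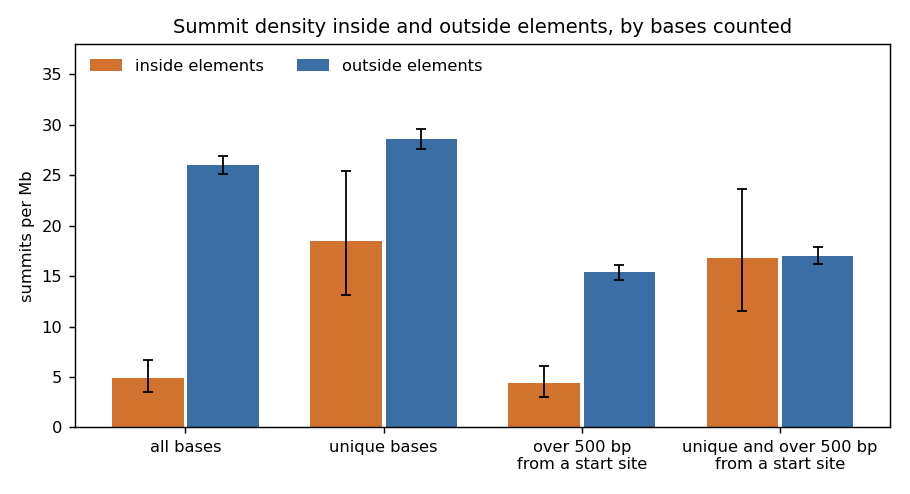
Summits per Mb (vertical axis) inside and outside annotated elements under 4 choices of bases counted (horizontal axis), with exact Poisson 95% intervals. The pair over all bases stands at 4.92 and 26.04, and the pair over unique bases more than 500 bp from a start site at 16.8 and 17.0.

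The same measure was taken per element. The median share of 50-base words that occur once was 88.8% (quartiles 58.1% and 100%) in the 40 elements with a summit and 97.2% (9.48% and 100%) in the elements without one. The medians were close, but the lower tail differed. Among the 5479 elements without a summit that were long enough for a word, 533 (9.73%) had no unique word at all, and among the 40 with a summit there were none. The sequence from 25 bp before to 25 bp after the summit occurred once in the 7 chromosomes for 38 of the 40 summits, in 2 copies for F{}4636 and in 5 copies for G4{}1122.

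The elements with a summit were clustered. Chromosome arm 2R held 18 of the 40 summits, 3L held 9, chromosome 4 held 8, 2L held 4 and 3R held 1. The X chromosome held 0 among 912 elements, at most 2.85 per Mb by the Poisson interval, and the Y chromosome 0 among 80. In proportion to length chromosome 4 stood highest, with 23.95 per Mb inside elements (10.3 to 47.2), and it was also highest elsewhere, with 62.3 per Mb (44.9 to 84.2). On 2R the densities were 9.19 per Mb inside (5.45 to 14.5) and 27.6 elsewhere, and on 3R 0.771 inside (0.0195 to 4.29) and 22.6 elsewhere. Every chromosome with more than 2 summits had a lower density inside elements than elsewhere, with overlapping intervals on chromosome 4 only.

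Within chromosomes, the summits followed the dense element regions. In windows of 100 kb with elements over 50% or more of their bases, 25 windows in all, there were 22 of the 40 summits. Those windows had 14.7 summits per Mb inside elements (9.19 to 22.2) and 72.4 per Mb in the gaps between them (55.8 to 92.5). Windows with 20% to 50% coverage added 13 summits, at 7.90 per Mb inside and 27.4 outside. Windows below 5% coverage held 2 summits inside elements, at 2.84 per Mb, and those from 5% to 20% held 3, at 0.702 per Mb. Counted on unique bases only, the densest windows gave 25.3 per Mb inside (15.4 to 39.1) and 88.5 per Mb outside (68.1 to 113), with intervals that did not overlap. Windows with 20% to 50% coverage gave 22.9 (12.2 to 39.1) and 33.9 (27.9 to 40.8), and those below 5% gave 11.5 (1.39 to 41.5) and 29.2 (28.0 to 30.4), both with overlapping intervals. From 5% to 20% the densities were 5.73 (1.18 to 16.8) and 25.5 (23.8 to 27.2), again apart. The windows were chosen after the distribution had been seen.

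By element, 40 of 5889 (0.679%, Wilson 0.499% to 0.924%) held a summit, in 44 pairs of summit and element because elements nest. The background over all 24166 annotated records was 6.19%, and 7.96% over the records that are not elements. Counting 500 bp on either side, 181 elements (3.07%, 2.66% to 3.55%) were scored, against a background of 13.7%. Protein-coding genes stood at 9.39% and 20.1% on the 2 counts, non-coding RNA genes at 4.10% and 8.33%, and tRNA genes at 0 of 290 inside and 3.10% with the flanks. Elements were thus scored less often than the records as a whole on both counts.

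Length moved with this count, and its part in the result was not tested. The median element was 373 bp long (quartiles 126 and 1448) and the median other record 1646 bp. Among records of 2000 bp or more, 1.22% of elements held a summit (15 of 1226) and 15.9% of other records did. Among records under 200 bp the shares were 0.244% (5 of 2053) and 0.335% (5 of 1492), with overlapping intervals. Other records held a summit in 2.04% of cases from 200 to under 500 bp and in 2.36% from 500 to under 2000 bp, where elements held one in 0.524% and 1.02%.

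The summits were spread over 22 of 128 families, and 18 of these families had a single element with a summit. Of the 40 summits, 3 lay in more than 1 element and were counted for each of the families there. The families I, Rt1b and Stalker4 were scored only through such shared summits. Of the 90 families with at least 10 elements, 71 had none. Only INE-1, hoppel, Cr1a and F had 3 or more elements with a summit, and they held 24 of the 40 summits. Neither count was tested against the number of elements in the families. INE-1, the most numerous family of the fly genome, had 8 of 2235 elements (0.358%, Wilson 0.181% to 0.705%), and 56 with the flanks. Hoppel, which the annotation lists by a number as its name, is a family of short TIR remnants common near heterochromatin, and it had 7 of 493 (1.42%, 0.689% to 2.90%), and 31 with the flanks. Cr1a, a LINE-like family of mostly old copies, had 4 of 152 (2.63%, 1.03% to 6.57%), and the F-element had 3 of 87 (3.45%, 1.18% to 9.65%).

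Each of the other families fixed by name had at most 1 element with a summit, where the share over all elements was 0.679%. The LTR family roo had 1 of 144 elements (0.694%), with a median of 1.11% unique words per element. The LTR families copia and gypsy had 0 of 39 and 0 of 22, which allows a share of up to 7.69% and 13.6% by the limit of 3 counts. Hobo, a TIR element that the annotation names H, had 0 of 60 (up to 5%), and the LINE-like jockey had 0 of 96 (up to 3.12%), though 4 jockey elements had a summit within 500 bp. The I-element, the LINE behind one form of hybrid dysgenesis, had 1 of 38. That summit also lies in gypsy12{}2213 and Rt1b{}1666 and was counted for their families too. The telomeric retrotransposons HeT-A and TART, which maintain fly chromosome ends, had 0 of 27 and 0 of 14, and no record of the P-element or of TAHRE, the third telomeric family, was among those scored.

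Summits per Mb of element differed between orders. LTR retrotransposons, with 4.90 Mb, had 8 summits or 1.63 per Mb (0.705 to 3.22). LINE-like elements had 13 summits or 6.52 per Mb (3.47 to 11.1), TIR elements 10 or 11.0 per Mb (5.26 to 20.2), and helitron-like elements 9 or 16.4 per Mb (7.49 to 31.1). The LINE-like count includes 2 summits in Rt1b{}1666 that lie in an LTR and a foldback element nested in it. Those summits were counted for both orders. The interval for LTR elements did not overlap those of TIR and helitron-like elements. It was also apart from the LINE-like interval as counted, and whether it would be without those 2 summits was not computed. The intervals of the 3 other large orders overlapped one another. Counted per element, the order was another one. Helitron-like elements, which are short, had the lowest share with a summit of these 4 orders, 0.358% (0.181% to 0.704%), and LTR elements had 0.613% (0.323% to 1.16%), LINE-like 0.987% (0.552% to 1.76%) and TIR 1.04% (0.564% to 1.90%). The intervals of helitron-like and LTR elements overlapped. Foldback elements, a small order of 69 copies, had 2 summits. The median share of unique words was 10.4% in LTR elements, 54.4% in LINE-like, 46.2% in TIR and 100% in helitron-like elements, and its part in the densities per Mb was not tested.

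**Figure D3:**
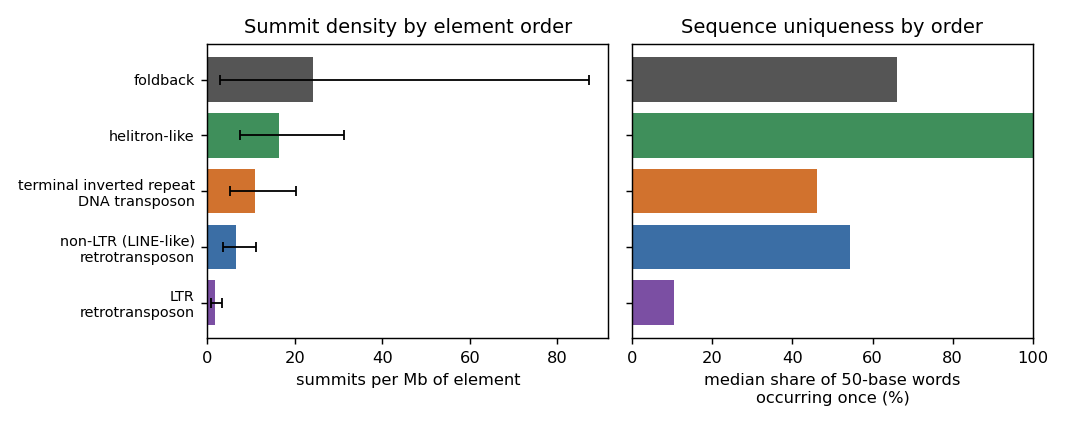
Summits per Mb of element with exact Poisson 95% intervals (left) and the median share of 50-base words that occur once in the reference (right), by element order. Of the 4 large orders, LTR retrotransposons are lowest on both, at 1.63 per Mb and 10.4%, and the foldback bar rests on 2 summits; the 35 unclassified elements, with 0 summits, are not drawn.

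Among LINE-like elements the highest summit lay in G5{}5178 (chr3L:23258297-23260404), inside an intron of nAChRalpha4, which encodes a nicotinic acetylcholine receptor subunit. Its signal was 590, with 264 in the ranked list of replicate 1 and 320 in that of replicate 2, and it ranked 103rd of the conservative list. This element is 2108 bp long, every one of its words was unique, and it held a second summit of signal 107 at 1411 bp from the first. F{}1572 (chr4:1256227-1260813) followed with a signal of 195, in an intron of Cadps, which encodes a factor for release of dense-core vesicles. Replicates 1 and 2 gave it 88.5 and 98.9. Cr1a{}1703 (chr4:206492-209946) had 176 and Cr1a{}5031 (chr2R:4826777-4828044) had 156. The former lay 1281 bp upstream of the start site of CG31998 and the latter 1833 bp upstream of that of CG14464. The lowest of the 40 signals, 2.52, was the second summit of Cr1a{}6093, just over 200 bp from the first at 47.9. Both overlapped the same ranked peak in each replicate, so the pair may be read as 1 place.

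Among LTR elements the highest was roo{}6606 (chr2L:22911685-22919262), with a signal of 324 and replicate values of 155 and 164. It lay 6013 bp upstream of light (lt), a gene for vesicle transport to the lysosome that is known for working inside heterochromatin. The summit was 7098 bp into a copy of 7578 bp, of whose words 32.2% were unique. Quasimodo{}2531 (chr2R:5258918-5258967), at 153, is a fragment of 50 bp, and its summit sat on the last base and 86 bp from the start site of d4, which encodes a PHD finger protein. FBti0020227 (chr3L:23072281-23079602), of a gypsy-like family that is also named by a number, had 131 and is 7322 bp long. Its summit lay outside annotated genes, 19589 bp from the nearest protein-coding start site, that of the ribosomal protein gene RpL10. These 3 members thus ranged from a nearly whole copy to a scrap beside a promoter.

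The TIR elements of highest signal were hoppel elements FBti0061714 and FBti0215203 and transib4{}623. FBti0061714 (chr2R:4594156-4594540) had 236, with 117 and 124 in the replicates, and lay 829 bp upstream of p120ctn, which encodes a catenin that binds cadherins. FBti0215203 (chr3R:3746260-3748708) had 144, with replicate values of 42.8 and 99.6, the widest ratio between replicates among the 15 elements of highest signal. It was the only summit inside an element on 3R. transib4{}623 (chr2R:5143524-5144516) had 133 and lay 814 bp upstream of Atf6, a transcription factor gene of the unfolded protein response.

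INE-1 elements filled 5 of the 15 places of highest signal, and none passed 170. INE-1{}4837 (chr4:180265-180926) had 169, with 67.5 and 101.4 in the replicates, in an exon of a long non-coding RNA gene and 1460 bp upstream of Arl4, which encodes a small GTPase. INE-1{}2067 (chr2R:5088309-5088935) held 2 summits, of 142 and 112, upstream of CG3107. INE-1{}3072 (chr2R:7665489-7665573) had 125, at 280 bp upstream of Rdh1, a retinol dehydrogenase gene. INE-1{}5485 (chr4:1148087-1148325) had 121 in an intron of the kinesin gene Kif3C, and INE-1{}5315 (chr4:130589-131104) had 118 at 910 bp upstream of Ank, the ankyrin gene. The element just below these 15 was F{}5843, at 117, in an intron of AGO3, which encodes an Argonaute protein of the piRNA pathway itself.

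The strength of summits inside elements was ordinary for the list. Their median signal was 109 (quartiles 62.96 and 135, range 2.52 to 590), and that of the 3357 summits outside was 90.8 (67.1 and 143, up to 1675). Away from start sites the medians were 107 and 84.3. A signal above 500 was found at 1 summit inside an element. A thresholded peak of both replicates overlapped 23 of the 40 (57.5%, Wilson 42.2% to 71.5%), 3 had one in replicate 1 only, 4 in replicate 2 only and 10 (25%) in neither, and outside elements both replicates supported 48.5% and neither 24.0%. All 40 overlapped a ranked peak of replicate 1 and 39 one of replicate 2. The exception was Cr1a{}3698. The replicate medians inside were 51.01 and 50.6, and those outside 47.1 and 44.8.

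**Figure D4:**
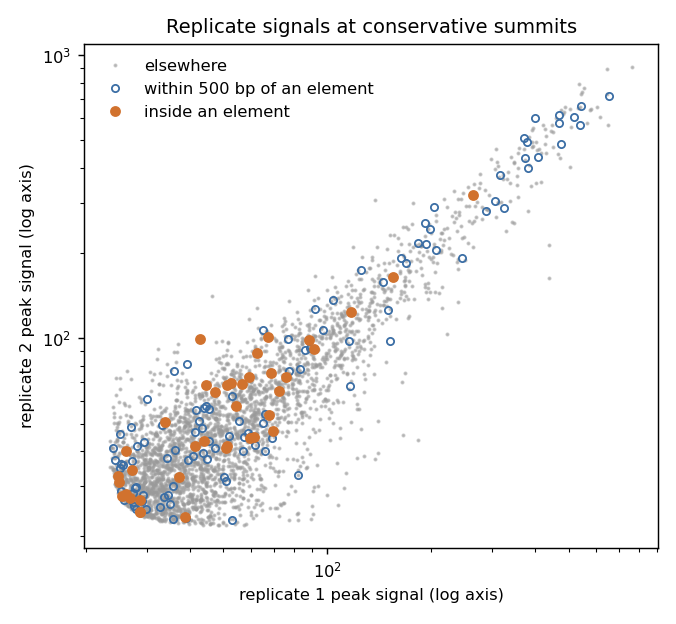
Peak signal in the ranked list of replicate 1 (horizontal) and replicate 2 (vertical), both on log axes, for each conservative summit with a ranked peak in both. Summits inside elements lie within the spread of the others, from 24.8 to 264 in replicate 1, and G5{}5178 is the highest of them.

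Pooled over all families, the summits had no common place along the elements. Copies differ in length and in where their annotated ends fall, so pooled positions cannot show a site shared within a family. Measured from the 5′ end on the element's strand, and with each element cut into 3 equal parts, 12 lay in the 5′ part, 12 in the middle and 16 in the 3′ part, and 14 were within 100 bp of an end. Outside annotated genes lay 27 of the 40, 11 were in introns, 2 were in exons of non-coding genes, and 0 were in coding sequence or the untranslated ends of coding genes. The median distance to the nearest protein-coding start site was 2713 bp, and 18 were within 2000 bp of one.

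**Figure D5:**
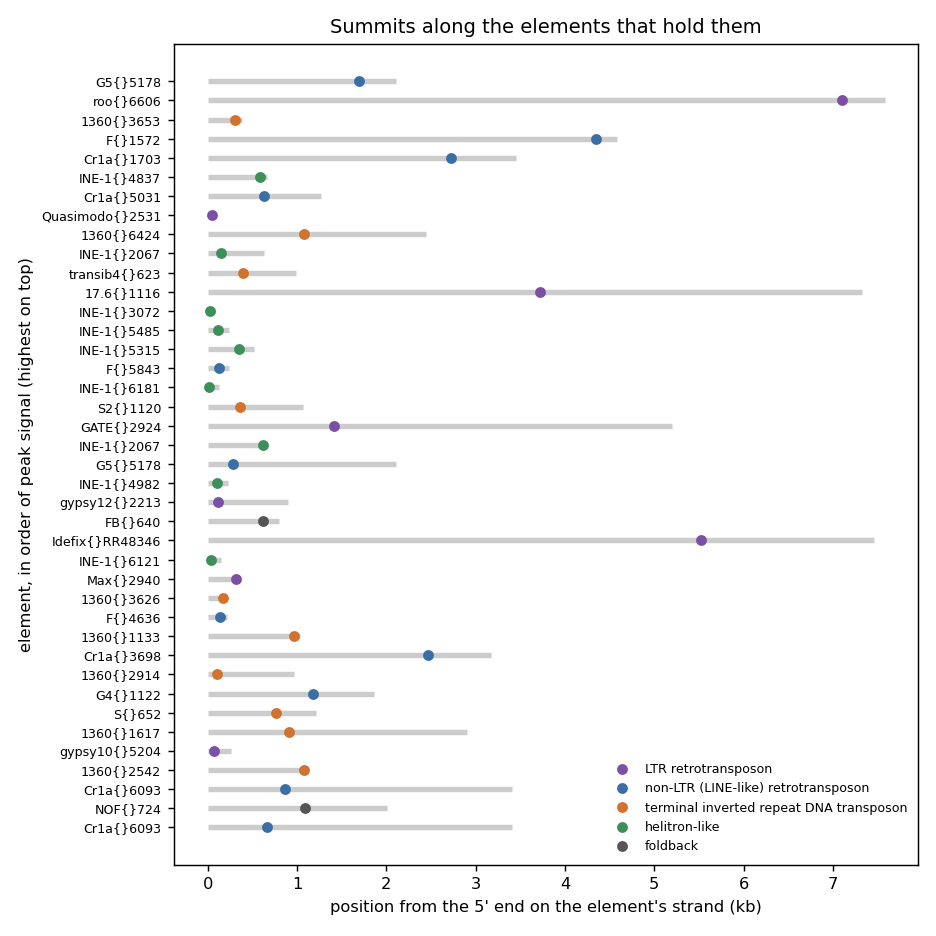
Each grey line is an element that holds a summit, drawn to scale from its 5′ end in kb (horizontal), in order of peak signal, and the dot is the summit, coloured by element order. An element with 2 summits has 2 lines, and hoppel elements carry the family's number in their names. The dots fall along the whole of the lines, in elements from 50 bp to 7578 bp. Where elements nest, 1 per summit is drawn, and the 66001-bp Rt1b{}1666, which holds 2 of the summits within elements nested in it, is not.

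Summits inside elements had close neighbours. For 24 of the 40 (60.0%, Wilson 44.6% to 73.7%) another conservative summit lay within 2000 bp, against 26.6% (25.2% to 28.1%) of the summits outside, and the median distance to the next summit was 1596 bp against 6328 bp. Some of these neighbours were themselves inside elements, as in G5{}5178, INE-1{}2067 and Cr1a{}6093. Such pairs were counted from both sides, and the interval treats their members as separate. In windows of 100 kb with at least 20% element coverage, 23 of 35 summits inside elements (65.7%, 49.2% to 79.2%) and 49.2% of 179 outside (41.9% to 56.4%) had such a neighbour, and there the intervals overlapped. The nearest genes by start site of the 40 summits numbered 31. For 30 of the 40 (75%, 59.8% to 85.8%) that gene had another summit within 500 bp of a start site of its own, against 19.9% (18.6% to 21.3%) of summits outside elements and 25.01% of those outside and over 500 bp from a start site. These 30 had 23 genes between them, so several genes were counted more than once. No limit of distance was set on the nearest gene. Its start site was at a median of 2713 bp over the 40 summits and at most 269602 bp away, for CG17684. In the windows of at least 20% coverage the shares were 80% (64.1% to 90.0%) inside and 35.2% (28.6% to 42.4%) outside. In 29 of the 30 inside elements the promoter summit was the stronger, as it was for 60.2% of the outside summits with one. Among summits over 500 bp from a start site, which leaves promoter summits out, it was the stronger for 96.2% inside and 62.2% outside. In the windows of at least 20% coverage it was the stronger for 27 of 28 inside (96.4%) and 50 of 63 outside (79.4%). The exception was p120ctn, with 207 at its promoter against 236 in FBti0061714. Arl4 showed the usual order, with 901 at the promoter and 169 in INE-1{}4837, as did CG14464 with 1190 against 156 in Cr1a{}5031. These neighbours were sought after the list of elements had been seen.

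Strong summits beside elements mostly lay near start sites, and whether this sets them apart from strong summits elsewhere was not examined. Of the 106 summits within 500 bp of an element and inside none, 54 (50.9%, Wilson 41.6% to 60.3%) were within 500 bp of a start site, close to the 49.3% of all summits outside elements. Their median signal was 105.5 and their upper quartile 302. A signal above 500 was found at 17 of them, and 15 of the 17 were within 500 bp of a start site. Summits more than 500 bp from any element had a median of 90.4 and an upper quartile of 141. Within 500 bp of a start site the upper quartiles were 611 beside elements and 167 elsewhere, and farther away 114 and 123. The share of strong summits elsewhere that lie at promoters was not taken. INE-1 was the nearest element for 39 of the 106 and hoppel for 17. INE-1 had 2235 of the 5889 elements and hoppel 493, and the counts were not tested against these numbers.

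The strongest summit beside an element was one of 1367 on chromosome 4, 100 bp outside INE-1{}2713 and 84 bp upstream of Gyf, which encodes a regulator of translation. Its replicate values were 654 and 718, and it ranked 4th of all. Next came 1190, at 421 bp from INE-1{}4436 and 47 bp upstream of CG14464, and 1124, at 460 bp from INE-1{}2912 and 57 bp upstream of gus, which encodes a partner of the germline helicase Vasa. A summit of 1102 lay 260 bp from Cr1a{}1703 and 18 bp upstream of Crk, an adaptor protein gene. The fifth, of 1090, was 408 bp from INE-1{}2068 and 26 bp upstream of CG3107. All 5 exceeded every summit inside an element, and all 5 were within 100 bp of a start site.

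The word CACTG was found less often at summits inside elements than at other summits. CACTG or its reverse complement CAGTG was searched up to 100 bp to either side of each summit, which covers both strands. It was found in 5 of the 40 windows inside elements (12.5%, Wilson 5.46% to 26.1%), in 52.3% of the 3357 other windows (50.6% to 54.0%), and in 56.1% of the other windows more than 500 bp from a start site. Consecutive tiles of the same length along the elements themselves held it in 24.1% of 43237 cases. The interval inside elements lay below the share at other summits and held the share of the tiles. The window of F{}1572, shown in part above, had 5 such words, INE-1{}2067 had 3 at its weaker summit, FBti0020244 had 2, and FBti0060975 and G4{}1122 had 1 each.

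TATCGATA, its own reverse complement and the site known for the factor DREF, was found in 4 of the 40 windows (10%, 3.96% to 23.1%), in 4.20% of the other windows (3.57% to 4.93%) and in 0.940% of the other windows more than 500 bp from a start site. Tiles of elements held it in 0.717%. All 4 were the INE-1 windows printed above, of the 9 windows in that family, and the word stood 4.5 to 39.5 bp from the summit. INE-1 tiles held it in 11.2% of 1704 cases (9.80% to 12.8%). Among INE-1 elements, 344 of 2235 (15.4%) held the word anywhere, and 5 of these 344 (1.45%, 0.622% to 3.36%) held a summit, against 3 of the 1891 without it (0.159%, 0.0540% to 0.465%). Elements with the word were longer, 364 bp against 129 bp at the median, and the part of length in this was not tested. This split of INE-1 was made after the 4 windows had been seen. In all other families together 1 of 119 elements with the word (0.840%, 0.148% to 4.61%) and 31 of 3535 without it (0.877%, 0.618% to 1.24%) held a summit. AGNNGGCGC, the core of the fly CTCF motif, was searched on both strands and found in 1 of the 40 windows, in 3.31% of the others and in 0.962% of the tiles.

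Shared sequence among the windows was limited to copies of a family. Of 780 pairs of windows, 7 shared a run of 20 bases or more, and all 7 were among the 71 pairs from the same family. The longest was the F-element pair printed above, of which both copies lie in introns of AGO3. Their signals were 117 for F{}5843 and 67.0 for F{}4636. Next were 29 bases between FBti0020244 and FBti0060603 and 27 between INE-1{}4837 and INE-1{}2067. Such pairs are not independent instances of a sequence.

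The lists of ranked peaks show what the threshold left out. The ranked list behind the conservative one held 131781 summits on the 7 chromosomes, of which 2016 (1.53%, 1.46% to 1.60%) were inside elements. Of these 2016, the thresholded list kept 1.98% (1.46% to 2.69%), against 2.59% (2.502% to 2.675%) of those outside, with overlapping intervals. In the other series-level ranked list the shares kept were 1.89% (1.41% to 2.54%) inside and 2.86% (2.77% to 2.94%) outside, with intervals that did not overlap. At a global IDR of at most 0.01, 42 ranked summits were inside elements and 2 of them were absent from the conservative list, in R1{}RR48395 with a signal of 211 and in R1A1{}1124 with 111, both on 3L. Outside elements 85 of 3442 were absent. In the other series-level pair of lists 4 of 47 such summits inside elements were absent, against 107 of 4044 outside. In the replicate 1 lists 1 of 27 inside (3.70%) and 81 of 2653 outside (3.05%) were absent, and in the replicate 2 lists 8 of 40 inside (20%) and 70 of 2298 outside (3.05%). The thresholded lists were made with 1 further file whose content the deposited inventories do not state.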

How the data were processed

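Peak lists of CG1024-eGFP chromatin immunoprecipitation from 2 biological replicates were used as deposited. Per the labels and the deposited inventories, chromatin was sonicated to 200 to 800 bp, peaks were called against a control on the dm6 build, and thresholded lists also drew on 1 further file of unstated content. The sources used here name neither the aligner nor the peak caller. The deposited signal is the authors' peak caller value, the deposited score is a scaled IDR of at most 1000, and the ranked lists give the authors' −log10 of the global IDR. No reads or counts were used and depth is unknown.

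Elements came from Ensembl release 115 on the Release 6 assembly, the one dm6 is built from, and every peak ended within its chromosome there. Families were read from names, and a hand-written map gave their order, with shortened names added after the annotation was read. Summits were scored inside elements and within 500 bp. Start sites exclude elements. Intervals are 95% Wilson or exact Poisson. Word uniqueness was computed on the 7 chromosomes and the rest of the reference. Scripts were tested on simulated data. Named elements are the 15 with the strongest summit inside, each family with 3 or more such elements and its strongest, the 5 strongest flanking summits, listed families, and nearest genes. Members and lists were chosen with earlier results of these data known. Alternatives were other lists, stricter thresholds, whole peak spans, 5 chromosomes, longer elements, flanks of 200 and 1000 bp, and other word and window lengths. Intervals were computed with scipy 1.17.1, tables handled with pandas 2.3.3 and numpy 2.4.6 under Python 3.11.15, and figures drawn with matplotlib 3.10.9.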

Additional observations from a re-analysis of the deposited data

How the results depend on the processing

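No paired analysis was possible because there is 1 group and no comparison between groups. Density stayed lower inside elements than elsewhere under the alternatives run, with 1 exception, and the values were close only over bases that are both unique and more than 500 bp from a start site, where it was 16.8 per Mb inside, 17.1 in the flanks and 17.0 elsewhere; with 36-base words there it was higher inside, 18.6 against 17.1. Unique bases alone gave 18.5 inside and 28.5 elsewhere, and bases more than 500 bp from a start site gave 15.5 in the flanks and 15.4 elsewhere; these 3 restrictions were chosen after seeing the data. Among the alternative values, 67 stayed within the 95% interval of the value reported, or within 1.5 times of it for counts of elements, and 56 did not. With 1 replicate's list alone, 1.00% to 1.42% of summits were inside elements, 0.458% to 0.611% of elements held one and 2.38% to 2.56% with the flanks. Density was then 3.20 to 3.94 per Mb inside, 21.4 to 21.9 in the flanks and 17.2 to 19.9 elsewhere. Elements with a summit were 7 to 10 (LTR), 8 to 10 (LINE-like), 4 to 8 (TIR), 7 to 8 (helitron-like) and 0 to 1 (foldback), the median signal 59.5 to 66.7 and the share of windows with CACTG 15.4% to 15.6%. The other series-level list gave 30.5 per Mb elsewhere, 1 foldback element and, in its ranked form, 1.62% of ranked summits inside elements. Peaks above the median signal gave 0.425% of elements, 1.94% with flanks, 2.95 per Mb inside, 16.7 in the flanks, 12.9 elsewhere, 7 LINE-like, 4 TIR and 1 foldback element and a median signal of 128. A global IDR of at most 0.001 gave 0.458%, 2.04%, 3.20, 17.5 and 14.04 per Mb, 7, 4 and 1 elements and a signal of 123; both settings hold fewer peaks by construction. Counting the whole peak span put 1.91% of peaks in 1.22% of elements, 7.999 per Mb inside and 21.2 in the flanks, with 20 TIR and 21 helitron-like elements, and CACTG in 26.2% of windows. Elements of at least 500 bp held 0.824% of summits, in 1.12% of elements, with 3 helitron-like elements, and without chromosomes 4 and Y there were 5. Flanks of 200 and 1000 bp gave 1.63% and 5.42% of elements. Elements without a summit had a median of 87.4% unique words of 36 bases and 100% of 100 bases. Few summits per family and the unknown depth limit what can be said of young families.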
